A study of Homo sapiens with 12 samples.

Results

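The genes described here serve the synthesis, sensing, transport and storage of cholesterol in HepG2 cells, a long-established liver cancer line of human origin. A fixed list of 31 gene symbols was looked up among the 28256 symbols of the deposited count table, and each symbol was represented by 1 transcript, the one with most counts in the 12 libraries together. All 31 were found, and 30 of them passed the filter on low counts that left 13166 genes for testing. INSIG1 did not pass. The list holds 8 genes of the steps from acetyl-CoA to isoprenoids, 12 genes of the steps from squalene to cholesterol, 4 genes of sterol sensing, 5 genes of uptake and transport inside the cell, and 2 genes of storage as cholesteryl ester.

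Total RNA-seq was done on 12 libraries of wild-type HepG2 cells, 3 in each of 4 groups. Per the labels, all cells were kept on charcoal-stripped serum during 24 h before a 24 h treatment. The treatments were the vehicle DMSO at 0.1%, dexamethasone (Dex), a synthetic glucocorticoid, at 50 nM, KLA at a dose labelled 100 ng/µl, and both agents together (DexKLA). The labels do not spell out KLA or say whether treated cells also received DMSO, and they do not say whether the libraries of a group came from separate cultures, so the p-values reflect no more than how far these libraries differ, which can be technical. The charcoal-stripped serum was thus common to all groups, and 1 hepatoma line is the only model. Libraries are named by group and replicate number, as in KLA 3.

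Cholesterol is built from acetyl-CoA through the mevalonate pathway, which gives isoprenoid units that are joined to squalene, closed into a ring and then trimmed and reduced. The transcription factor SREBP2, the product of SREBF2, drives most of these enzyme genes. Its escort SCAP carries it from the endoplasmic reticulum to the Golgi when membrane cholesterol is low, and the INSIG proteins hold both back when sterols are plentiful. Liver cells also take up cholesterol through lipoproteins, release it from lysosomes through NPC1 and NPC2, and store the excess as ester made by SOAT1 and SOAT2.

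Total counts over genes ranged from 3317740 to 5277463 in the DMSO libraries, from 3642685 to 17782057 in the Dex libraries, from 15998657 to 20933501 in the KLA libraries and from 4514606 to 11484497 in the DexKLA libraries. Every KLA library was deeper than every DMSO library, so depth and KLA cannot be told apart in that comparison. The hepatocyte genes ALB (56990 to 101089 TMM-normalised CPM, counts scaled to a common library total) and HNF4A (168 to 254 CPM) were abundant in all 12 libraries. Defining markers of leukocytes (PTPRC, at most 1 count), macrophages (CSF1R, at most 5 counts), fibroblasts (COL1A1, at most 5 counts) and endothelium (CDH5, at most 11 counts) were near 0 in every library, whereas KRT19 (91.0 to 155 CPM) and SOX9 (64.9 to 90.1 CPM), which mark bile duct cells, were present in all of them. Other markers of the same lists were also present, CD68 of macrophages at 43.2 to 55.4 CPM, PDGFRB and ACTA2 of stellate cells and fibroblasts at 21.0 to 30.6 and 15.2 to 25.9 CPM, and PECAM1 of endothelium at 2.53 to 3.88 CPM, whereas KRT7 of bile ducts had at most 8 counts. In bulk RNA, fewer expressing cells and less RNA per cell cannot be told apart.

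Promoter sequences of the members were looked up in RefSeq's GRCh38.p14 models (250 bases before to 50 bases after the annotated start), since many of the members are textbook targets of SREBP2, which works with NF-Y at many sterol-responsive promoters. Of the 31 members, 27 had an entry, and ACAT2, FDFT1, SQLE and SOAT2 did not. Stretches of 5 promoters that hold the motifs searched are printed 5′ to 3′ on the gene's strand, with capitals for motif letters in either orientation (ATTGG is CCAAT on the opposite strand).
SREBF2, the gene of the pathway's regulator and the 1 member with a match to the sterol regulatory element, chr22:41832962-41833013, plus strand: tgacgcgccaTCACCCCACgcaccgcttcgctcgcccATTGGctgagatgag
HMGCS1, an early enzyme with 2 CCAAT boxes, chr5:43313498-43313577, minus strand: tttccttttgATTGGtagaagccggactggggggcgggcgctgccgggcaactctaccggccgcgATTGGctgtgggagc
MSMO1, a late enzyme with 4 CCAAT boxes, chr4:165327474-165327649, plus strand: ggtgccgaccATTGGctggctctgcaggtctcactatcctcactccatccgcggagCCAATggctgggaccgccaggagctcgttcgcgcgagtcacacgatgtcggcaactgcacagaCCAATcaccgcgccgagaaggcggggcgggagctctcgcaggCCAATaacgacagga
SC5D, a late enzyme that rose with KLA and has an E-box beside a CCAAT box, chr11:121292630-121292729, plus strand: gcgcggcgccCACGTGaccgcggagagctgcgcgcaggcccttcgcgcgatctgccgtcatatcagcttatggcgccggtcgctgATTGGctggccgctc
SOAT1, the storage gene that fell with KLA, chr1:179293702-179293726, plus strand: ctggggaccaCCAATaggatgctca

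Each motif was searched on both strands of the whole 300-base window, and no motif overlaps another in the stretches shown. The sterol regulatory element written as TCACNCCAC was present in 1 of the 27 member promoters (3.7%) and in 1.15% of the 27305 promoters of the reference table. The E-box CACGTG was present in 4 of the 27 (14.8%), those of LSS, SC5D, SCAP and INSIG1, against 7.43% of all promoters. The CCAAT box was present in 19 of the 27 (70.4%) against 35.7% of all promoters. Up to 5 copies of the CCAAT box were found in a promoter, in MVK and NSDHL. The windows of PMVK, IDI1, GGPS1, CYP51A1, LBR, INSIG2 and NPC1 held none of the 3 letter strings. These matches describe the printed letters and do not mark a bound site. Among the members called below after KLA, the windows of IDI1, GGPS1 and INSIG2 were among those without a match, whereas those of SC5D and SOAT1, printed above, held 2 matches and 1. The RefSeq start behind the window lies 7338 bases from the start of the counted transcript for IDI1 and 1354 bases for GGPS1, so those windows are not the promoters of the transcripts measured. The starts of LBR, INSIG1 and NSDHL also differ, by 783, 106 and 96 bases, and those of the other 22 lie within 1 base.

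In level per transcript length, the synthesis enzymes ran from percentile 64.3 (PMVK) to percentile 98.7 (ACAT2) of the genes tested. Per kilobase of transcript, the median of the 30 tested members stood at 56.4 CPM (mean of the 12 libraries), against 7.31 CPM per kilobase for the median tested gene. ACAT2, the thiolase that joins acetyl-CoA units, was highest at 399 CPM per kilobase. Next came FDFT1, squalene synthase, at 331, FDPS, which makes farnesyl diphosphate, at 286, and IDI1, the isomerase of isopentenyl diphosphate, at 260 CPM per kilobase. The 8 genes up to the isoprenoids had a median of 176 CPM per kilobase, and the 12 from squalene onward 62.5. The sensing genes had a median of 42.6 CPM per kilobase over the 3 that passed the filter. The 5 transport genes had a median of 11.4, and the 2 storage genes stood at 25.4 (SOAT2, the acyltransferase typical of liver and intestine) and 6.53 (SOAT1, the widely expressed form). Within the storage pair, SOAT2 was thus the more abundant message per length. MYLIP, which encodes a ubiquitin ligase that marks lipoprotein receptors for breakdown, was lowest of the members tested at 0.808 CPM per kilobase.

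**Figure D1:**
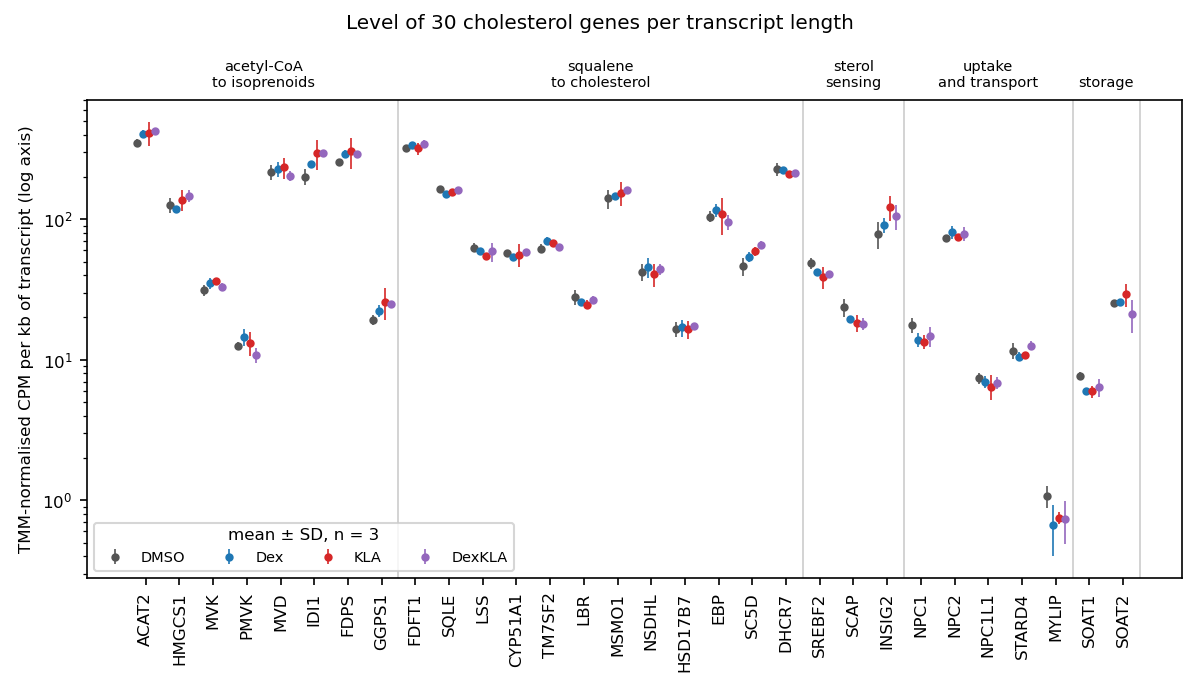
Level of each member in TMM-normalised CPM per kilobase of transcript (log axis), with points for the mean and bars for the SD of the 3 libraries of each group, and the members ordered by role. ACAT2, FDFT1, FDPS and IDI1 stand above 250 on the 12-library mean, and MYLIP lies below 1.

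INSIG1, a sterol sensor whose message normally follows SREBP2 activity, was close to 0 in all libraries. Its deposited counts were 0, 1 and 0 in the DMSO libraries, 0.5, 2 and 0 under Dex, 0, 2 and 3 under KLA, and 0, 1 and 1 under both agents. None of its 8 listed transcripts was above 3 counts in any library, and the sum over the 12 libraries was 10.5. A floor of 3 counts corresponds to 0.143 to 0.904 CPM, depending on the library, for counting error only, so no difference in INSIG1 between groups was detectable at this depth. Whether the low counts come from the cells or from how reads were counted was not tested. Its relative INSIG2 had 43807 deposited counts over the same libraries.

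Of the 30 members tested after KLA alone, 5 (16.7%) were called (edgeR quasi-likelihood test, Benjamini-Hochberg adjusted p under 0.05), against 13.7% of all 13166 genes tested. IDI1, GGPS1, SC5D and INSIG2 rose and SOAT1 fell, and of all genes 7.78% rose and 5.94% fell. The share of members called was thus near that of all genes. DESeq2 called 8 members, these 5 and SREBF2, SCAP and NPC1, all 3 lower, against 15.7% of all genes. The members' median log2 change was 0.01 and that of all genes −0.02. In size without sign, the median log2 change was 0.19 for the members and 0.23 for all genes. The libraries of KLA and DMSO did not overlap for 10 of the 30 members (4 higher with KLA, 6 lower), and for 36.2% of all genes tested.

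IDI1 (hg38 chr10:1039420-1049366, minus strand) was at 509.6, 628 and 657 CPM in the DMSO libraries, 727, 744 and 749 under Dex, 731, 776 and 1122 under KLA and 889, 882 and 867 under both agents. The 3 treated groups each lay wholly above the DMSO libraries, and KLA 3 was the highest of all 12. Against DMSO, the log2 change was 0.55 ± 0.13 (SE) with KLA (adjusted p = 0.0142, edgeR quasi-likelihood test) and 0.55 ± 0.13 with DexKLA (adjusted p = 0.0268). With Dex alone it was 0.31 ± 0.13 (adjusted p = 0.204) and was not called. The antisense gene IDI2-AS1 overlaps the exons of IDI1, and with no strand given in the sources used here its reads cannot be separated.

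SC5D (hg38 chr11:121292771-121313410, plus strand), the desaturase that acts near the end of the pathway, was at 268, 327 and 355 CPM under DMSO, 403, 343 and 366 under Dex, 392, 386 and 435 under KLA and 467, 467 and 420.2 under both agents. Libraries with KLA, alone or with Dex, were all above the highest DMSO library, and 1 Dex library lay inside the DMSO range. The log2 change against DMSO was 0.35 ± 0.11 with KLA (adjusted p = 0.0398, edgeR quasi-likelihood test) and 0.51 ± 0.11 with DexKLA (adjusted p = 0.016). At 0.22 ± 0.11 (adjusted p = 0.265), the change with Dex alone was not called.

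INSIG2 (hg38 chr2:118088471-118110997, plus strand), the INSIG gene that could be measured, was at 211, 302 and 326 CPM under DMSO, 367, 304 and 295 under Dex, 483, 332 and 488 under KLA and 368, 450.3 and 298 under both agents. KLA libraries were above all DMSO libraries, while the Dex and DexKLA libraries overlapped with them. The change with KLA was 0.63 ± 0.17 on the log2 scale (adjusted p = 0.0192, edgeR quasi-likelihood test). With DexKLA it was 0.41 ± 0.17 (adjusted p = 0.16) and with Dex 0.20 ± 0.17 (adjusted p = 0.527). The DMSO libraries of INSIG2 differed among themselves, DMSO 1 being the lowest of all 12.

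GGPS1 (hg38 chr1:235328570-235344529, plus strand), which makes geranylgeranyl diphosphate on the branch away from sterols, was at 51.2, 51.1 and 59.2 CPM under DMSO, 55.4, 64.8 and 66.4 under Dex, 59.5, 63.9 and 93.0 under KLA and 72.2, 68.9 and 68.9 under both agents. KLA 3 was the highest library, and KLA 1 exceeded the highest DMSO library by less than 1 CPM. The log2 change with KLA was 0.42 ± 0.14 (adjusted p = 0.0487, edgeR quasi-likelihood test). With DexKLA it was 0.38 ± 0.14 (adjusted p = 0.129). The counted transcript of GGPS1, 1 of 2 listed, is a non-coding RefSeq record, so these values need not be those of the coding message. In the annotation GGPS1 shares 1422 exon bases with TBCE on the same strand, so its counts are uncertain.

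SOAT1 (hg38 chr1:179293797-179358679, plus strand) was at 54.6, 54.2 and 49.3 CPM under DMSO, 39.9, 40.8 and 42.9 under Dex, 36.9, 40.4 and 44.8 under KLA and 40.4, 39.2 and 50.7 under both agents. Dex and KLA libraries all lay below the DMSO libraries, and DexKLA 3 lay inside the DMSO range. The log2 change was −0.37 ± 0.12 with KLA (adjusted p = 0.0413, edgeR quasi-likelihood test), −0.35 ± 0.12 with Dex (adjusted p = 0.116) and −0.27 ± 0.12 with DexKLA (adjusted p = 0.212). Only the first of these was called. The other storage gene, SOAT2, was at 53.5, 54.4 and 49.8 CPM under DMSO, 52.7, 50.3 and 56.3 under Dex, 70.5, 61.5 and 48.6 under KLA and 42.7, 54.8 and 32.2 under both agents. Its KLA libraries spanned more than the whole DMSO range, and its log2 change with KLA was 0.19 ± 0.15 (adjusted p = 0.407).

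**Figure D2:**
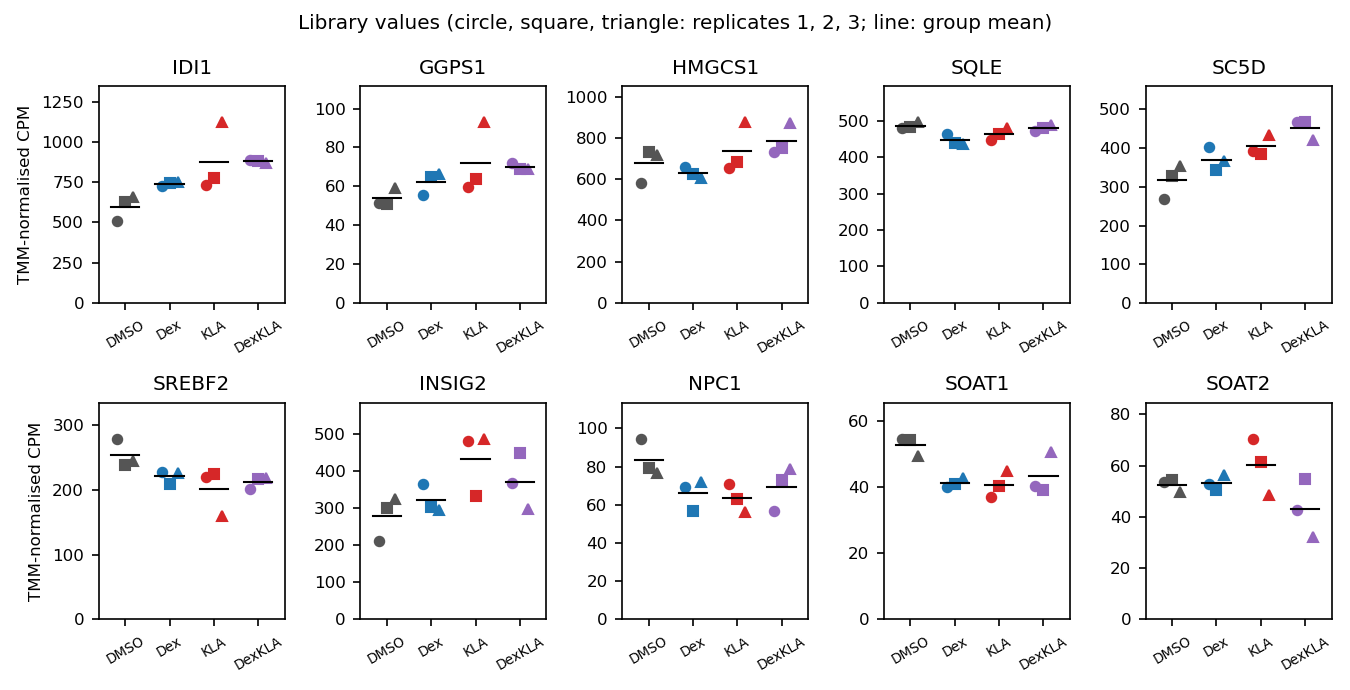
Level of selected members in each library, in TMM-normalised CPM, with a circle, square and triangle for replicates 1, 2 and 3 of each group and a line at their mean. The DMSO libraries of IDI1 and SC5D lie below all KLA and DexKLA libraries, and those of SOAT1 lie above all Dex and KLA libraries.

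SREBF2 and its escort SCAP were not called by edgeR in any comparison, and their values with each treatment lay below those with DMSO. SREBF2 (hg38 chr22:41833105-41907305, plus strand) was at 279, 239 and 244 CPM under DMSO, 227, 209 and 227 under Dex, 220.0, 224 and 160.2 under KLA and 202, 217 and 218 under both agents. Each treated group lay below all DMSO libraries, and KLA 3 was the lowest library. The log2 change was −0.33 ± 0.12 with KLA (adjusted p = 0.0605, edgeR quasi-likelihood test), −0.26 ± 0.12 with DexKLA (adjusted p = 0.213) and −0.20 ± 0.12 with Dex (adjusted p = 0.34), and none was called. SCAP was at 100.3 ± 15.1 CPM (mean ± SD, n = 3) under DMSO, 82.5 ± 2.73 under Dex, 77.5 ± 10.8 under KLA and 76.2 ± 7.36 under both agents. No treated library reached its DMSO range, but the margin was small. DMSO 2 was at 85.04 CPM, KLA 1 at 84.99, DexKLA 2 at 84.73 and Dex 1 at 84.55. Its change with KLA, −0.37 ± 0.12 on the log2 scale, had an adjusted p of 0.0502, just outside the threshold, and with DexKLA it was −0.40 ± 0.13 (adjusted p = 0.0728). DESeq2 called SREBF2 and SCAP, both lower, with KLA, and SCAP also with DexKLA.

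HMGCS1, which makes the precursor of mevalonate, was at 581, 731 and 716 CPM under DMSO, 659.8, 623 and 606 under Dex, 654, 681 and 876 under KLA and 733, 753 and 873 under both agents. The Dex libraries lay within the DMSO range, and the DexKLA libraries lay above it. The log2 change was 0.12 ± 0.12 with KLA (95% interval −0.13 to 0.38) and 0.22 ± 0.12 with DexKLA (95% interval −0.04 to 0.47), neither called. SQLE, the epoxidase that opens the sterol part of the pathway, was at 480.3, 482 and 496 CPM under DMSO, 464, 438 and 435 under Dex, 446, 463 and 481 under KLA and 471, 479 and 489 under both agents. All 12 values of SQLE lay between 435 and 496 CPM. Its 95% interval for the log2 change with KLA ran from −0.26 to 0.12, and with Dex from −0.32 to 0.07.

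The remaining synthesis enzymes were not called by edgeR in any comparison. Among the early steps, the kinases MVK and PMVK ranged over 83.6 to 109.7 and 11.1 to 19.3 CPM in the 12 libraries, and MVD, the decarboxylase that yields isopentenyl diphosphate, over 334 to 497 CPM. Per kilobase, PMVK stood at 12.8 CPM and was the least abundant of the early enzymes, below MVK at 33.9 and MVD at 221. FDFT1 ranged over 595 to 746 CPM, and its row has 2 annotated loci, so its reads cannot be placed at 1 of them. LSS, the cyclase that makes lanosterol, ranged over 244 to 319 CPM and also has 2 loci.

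Among the steps after lanosterol, CYP51A1, the demethylase that acts first, ranged over 151 to 212 CPM. TM7SF2 and LBR, which encode sterol reductases of the same step, ranged over 99.8 to 129.8 and 84.2 to 119 CPM, and per kilobase TM7SF2 (65.8 CPM) was above LBR (26.3 CPM). NSDHL and HSD17B7, which act on the same carbon of the ring, ranged over 54.1 to 81.8 and 21.6 to 28.8 CPM. EBP, the sterol isomerase, ranged over 99.4 to 163 CPM, with both its lowest and its highest value outside the DMSO range of that gene. DHCR7 ranged over 516 to 656 CPM. HSD17B7 was the least abundant of the late enzymes per kilobase, at 16.9 CPM. For LSS the KLA libraries all lay below the DMSO libraries, with a log2 change of −0.19 ± 0.11 (95% interval −0.42 to 0.03). Exons of MVK overlap MMAB on the opposite strand, those of NPC2 overlap ISCA2, and those of HMGCS1, FDPS, LSS, CYP51A1 and SREBF2 overlap antisense genes, so some of their counts may come from those genes. In the annotation CYP51A1 also shares 2844 exon bases with the coding gene AC000120.2 on the same strand, so its counts are uncertain.

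NPC1, the lysosomal cholesterol exporter (hg38 chr18:23531442-23586506, minus strand), was at 94.6, 79.3 and 76.6 CPM under DMSO, 69.3, 56.9 and 71.7 under Dex, 71.1, 63.0 and 56.4 under KLA and 56.6, 72.9 and 78.9 under both agents. Dex and KLA libraries lay below all DMSO libraries, and the DexKLA libraries overlapped with them. The log2 change was −0.39 ± 0.13 with KLA (adjusted p = 0.0525, edgeR quasi-likelihood test) and −0.35 ± 0.14 with Dex (adjusted p = 0.158), neither called by edgeR. DESeq2 called NPC1 lower with KLA. RMC1 lies on the opposite strand over part of NPC1. NPC2, its partner in the lysosome, ranged from 98.2 to 129 CPM over the 12 libraries, with a log2 change of 0.02 ± 0.11 with KLA. NPC1L1, which takes up sterol at the cell surface, ranged from 24.8 to 40.5 CPM, and STARD4, a carrier of sterol between membranes, from 44.4 to 61.8 CPM. MYLIP, at 1.10 to 3.94 CPM, had log2 changes of −0.56 ± 0.33 with Dex, −0.48 ± 0.30 with KLA and −0.41 ± 0.32 with DexKLA, with adjusted p of 0.349, 0.284 and 0.486.

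After Dex alone, none of the 30 members was called by edgeR or by DESeq2, against 2.05% of all genes by edgeR and 4.98% by DESeq2. At an unadjusted p under 0.05, 4 of the 30 members passed (1 higher, IDI1, and 3 lower, SOAT1, NPC1 and SCAP). Of the 13166 genes tested, 2683 did. The members' median log2 change was 0.06, and that of all genes −0.01. The libraries of Dex and DMSO did not overlap for 11 members (ACAT2, IDI1, FDPS, FDFT1 and TM7SF2 higher, and SQLE, SREBF2, SCAP, NPC1, MYLIP and SOAT1 lower), against 28% of all genes. FDPS was at 387 ± 1.93 CPM (mean ± SD, n = 3) with DMSO and 443 ± 28.4 with Dex, a log2 change of 0.20 ± 0.13 (adjusted p = 0.401, edgeR quasi-likelihood test). ACAT2 was at 530.2 ± 28.8 CPM with DMSO and 613 ± 37.1 with Dex, a log2 change of 0.21 ± 0.12 (adjusted p = 0.32). SOD2 and TCP1 lie opposite ACAT2, and with no strand given their reads cannot be told apart from its own.

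With both agents, 2 of the 30 members (6.67%) were called against DMSO, IDI1 and SC5D, both higher, against 4.22% of all genes called and 2.84% called higher (edgeR quasi-likelihood test). The members' median log2 change was 0.02, and that of all genes −0.02. The libraries of DexKLA and DMSO did not overlap for 10 members (ACAT2, HMGCS1, IDI1, FDPS, GGPS1, FDFT1 and SC5D higher, and SREBF2, SCAP and MYLIP lower), against 26.2% of all genes. The 3 comparisons with DMSO share the same 3 DMSO libraries, so likeness between them is not independent. Set side by side for Dex, KLA and DexKLA, the median log2 change of the 8 genes up to the isoprenoids was 0.20, 0.23 and 0.20. For the 12 genes from squalene onward it was 0.06, −0.03 and 0.02. Of the 8 early genes, 7, 8 and 6 had a positive value in the 3 comparisons, called or not, against 6377, 6280 and 6303 of the 13166 genes tested. Apart from HMGCS1 (5357 bases), their transcripts have 1191 to 2978 bases, below the median of 3130 for the genes tested. Changes followed transcript length across all genes, as given below, and the part of length in these medians was not tested.

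**Figure D3:**
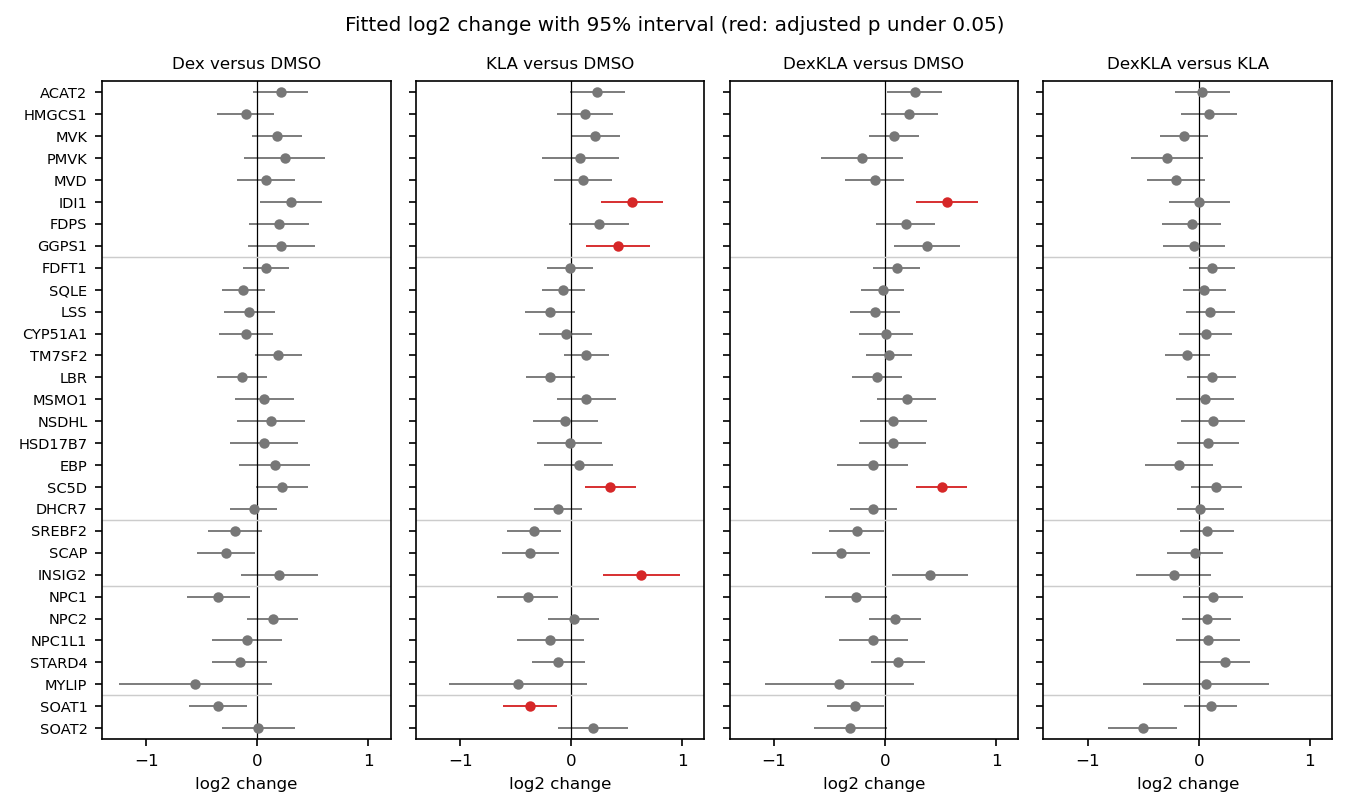
Log2 change of each tested member with Dex, KLA and DexKLA against DMSO and with DexKLA against KLA, with 95% intervals from the edgeR fit as bars. Red points mark adjusted p under 0.05, which 5 members reached with KLA, 2 with DexKLA against DMSO and none in the other panels.

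The effect of adding Dex to KLA was asked by comparing DexKLA with KLA. No member was called by edgeR or DESeq2, against 0.653% of all genes by edgeR and 0.881% by DESeq2. At an unadjusted p under 0.05, 2 of the 30 members passed, against 1385 of the 13166 genes tested. SOAT2 had a log2 change of −0.51 ± 0.15 (adjusted p = 0.192, edgeR quasi-likelihood test), its DexKLA and KLA libraries overlapping. STARD4 was at 49.7 ± 2.25 CPM (mean ± SD, n = 3) with KLA and 58.3 ± 4.11 with DexKLA, a change of 0.23 ± 0.11 (adjusted p = 0.469). STARD4 was the 1 member whose libraries did not overlap in this comparison, against 15.3% of all genes. Its antisense gene STARD4-AS1 overlaps it.

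Between DexKLA and Dex, no member and no gene (0% of those tested) was called by edgeR or DESeq2. At an unadjusted p under 0.05, 4 of the 30 members passed, against 935 of the 13166 genes tested. The libraries did not overlap for 9 members (HMGCS1, IDI1, GGPS1, SQLE, MSMO1, SC5D and STARD4 higher with DexKLA, and PMVK and TM7SF2 lower), against 12.7% of all genes. SC5D had a log2 change of 0.29 ± 0.11 (95% interval 0.06 to 0.52), and HMGCS1 one of 0.32 ± 0.12 (95% interval 0.07 to 0.58). PMVK, a kinase of the mevalonate steps, was at 17.4 ± 2.38 CPM (mean ± SD, n = 3) with Dex and 12.8 ± 1.57 with DexKLA. MSMO1, a sterol demethylating oxidase, was at 326 ± 10.8 CPM with Dex and 357 ± 19.9 with DexKLA. These differences are described by their values only, as none passed the test.

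Whether the effect of one agent depended on the other was tested by the interaction term. No member was called by edgeR or DESeq2, against 0.038% of all genes by edgeR and 5.04% by DESeq2. Of the 30 members, 6 had an unadjusted p under 0.05 (3 with a positive and 3 with a negative term). Of the 13166 genes tested, 2922 did. SOAT1 had an interaction of 0.46 ± 0.17 on the log2 scale (adjusted p = 0.119, edgeR quasi-likelihood test), NPC1 one of 0.48 ± 0.19 (adjusted p = 0.141), and SOAT2 one of −0.52 ± 0.22 (adjusted p = 0.169). A positive term means that DexKLA lay above the sum of the single changes on the log2 scale, and a negative one that it lay below. The term for IDI1 was −0.30 ± 0.19 (95% interval −0.69 to 0.09), and that for SC5D −0.07 ± 0.16 (95% interval −0.39 to 0.26).

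The libraries within a group differed for many members. Summed over the 20 synthesis genes, the share of TMM-normalised counts was 0.598% ± 0.0135 (SD, n = 3) under DMSO, 0.631% ± 0.0137 under Dex, 0.656% ± 0.089 under KLA and 0.669% ± 0.0248 under both agents. Within KLA it was 0.605%, 0.603% and 0.758%, KLA 3 being apart from the other two. KLA 3 held the highest of the 12 values for 11 of the 30 members (16.2% of all genes had theirs there), and DMSO 1 for 7 (20.6% of all genes). ACAT2, HMGCS1, IDI1, MSMO1 and INSIG2 were lowest in DMSO 1 and highest in KLA 3, a pattern shown by 7.05% of all genes. DHCR7, SREBF2, SCAP, NPC1 and NPC1L1 were highest in DMSO 1 and lowest in KLA 3, the reverse pattern, shown by 6.27% of all genes. The synthesis genes ACAT2, HMGCS1, IDI1 and MSMO1 thus sat at 1 end of this pair of libraries. The synthesis gene DHCR7 and the regulator gene SREBF2 sat at the other, and the remaining synthesis genes showed neither pattern. The transcripts of the first 5 genes are 1509 to 5357 bases long and those of the other 5 are 2593 to 5216. Over all genes, the rank correlation of a gene's deviation with transcript length was 0.192 in DMSO 1 and −0.526 in KLA 3. The part of length in these values was not tested.

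**Figure D4:**
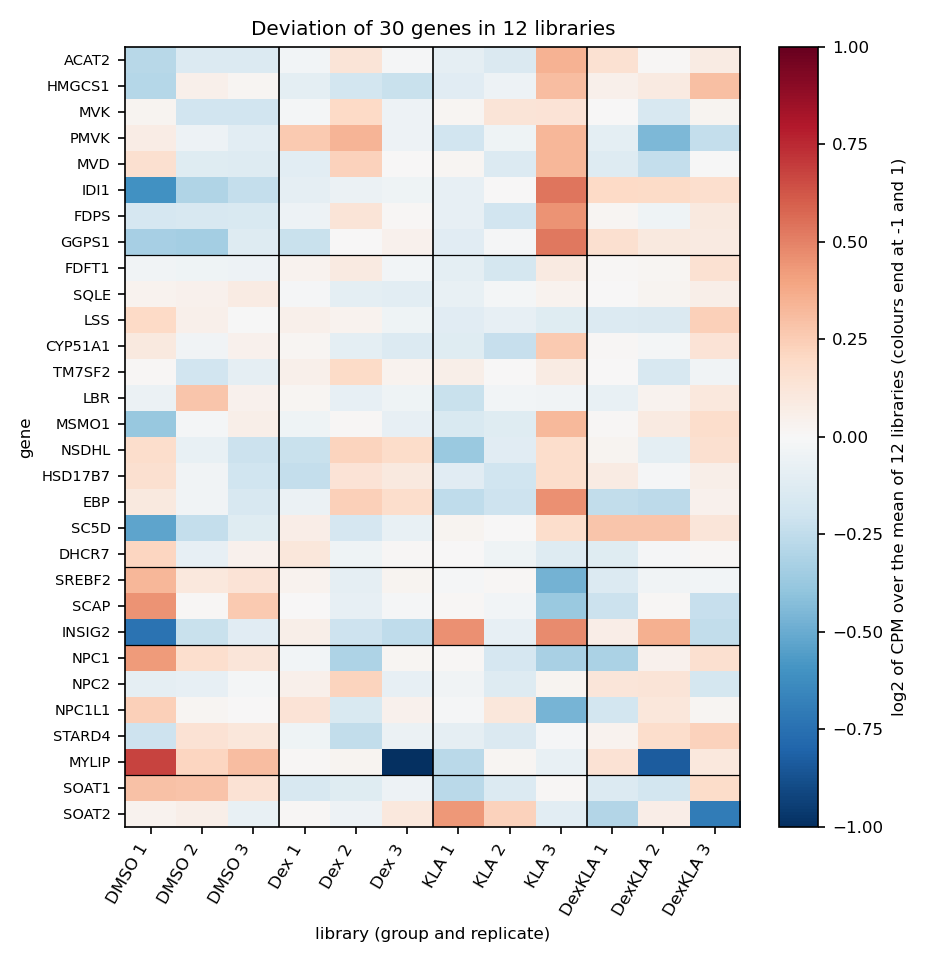
Deviation of each tested member in each library from its mean over the 12 libraries, on the log2 CPM scale, with members in rows by role and libraries in columns by group. KLA 3 and DMSO 1 show opposite colours for ACAT2, HMGCS1, IDI1, MSMO1 and INSIG2 on one side and for DHCR7, SREBF2, SCAP, NPC1 and NPC1L1 on the other. The lowest value, −1.17, is MYLIP in Dex 3.

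The calls after KLA were sensitive to those libraries. Without DMSO 1 edgeR called no member after KLA, against 0.0364% of all genes. Without KLA 3 only SOAT1 was called (−0.44, adjusted p = 0.0434), against 4.6% of all genes. Without KLA 3 the log2 change was 0.33 for IDI1 (adjusted p = 0.0807), 0.54 for INSIG2 (adjusted p = 0.0578), 0.30 for SC5D (adjusted p = 0.119) and 0.20 for GGPS1 (adjusted p = 0.281). Without DMSO 1 it was 0.45, 0.47, 0.25 and 0.39 for the same genes in that order and −0.35 for SOAT1, with adjusted p of 0.0964, 0.124, 0.197, 0.166 and 0.135. The signs stayed as they were. Of the DexKLA calls, IDI1 and SC5D were both lost without DMSO 1, without DexKLA 1 and without DexKLA 2. With a term for depth (the 6 deeper against the 6 shallower libraries) no member was called after KLA, against 0.0304% of all genes. After DexKLA 1 was called, against 1.31% of all genes. In the shallower libraries alone, DexKLA 2 was the lone library of its group, so only effect sizes are given. There the median log2 change for DexKLA against DMSO was −0.03 for the members and −0.03 for all genes. No value within a depth class can be had for KLA against DMSO.

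Transcript length moved with the groups across all genes. The rank correlation of a gene's log2 change with the length of its transcript, over the 13166 genes and as a description, was −0.467 for KLA, −0.448 for Dex and −0.181 for DexKLA against DMSO, and 0.494 for DexKLA against KLA. The median length of genes called higher with KLA was 1622 bases and of those called lower 5827 bases. Of the members called, IDI1 has 2978 bases, GGPS1 2796, INSIG2 3554 and SC5D 6847, and SOAT1, which fell, 6821. SC5D and SOAT1 are of nearly the same length and changed with opposite signs, but a single pair of genes cannot show what part length had. How far length shaped these calls was not tested. With the length trend removed, the log2 change with KLA was 0.55 for SC5D (adjusted p = 0.0124), 0.54 for IDI1 (adjusted p = 0.0182) and 0.67 for INSIG2 (adjusted p = 0.0206). For SOAT1 it was −0.18 (adjusted p = 0.378) and for GGPS1 0.40 (adjusted p = 0.0689), neither called.

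Of 49 other genes of sterol and isoprenoid metabolism, 43 passed the filter. With KLA 8 of these (18.6%) were called, beside 13.7% of all genes tested, 2 higher and 6 lower. The 4 with the smallest p are described here, SREBF1, OSBP and MBTPS1 among those that were lower and PDSS1 among those that were higher. Dex and DexKLA gave 1 call each against DMSO (2.33%), SREBF1 lower. In DexKLA against KLA, DexKLA against Dex and the interaction edgeR called none of the 43, and DESeq2 called 0, 0 and 2 (COQ2 and OSBP). At an unadjusted p under 0.05 there were 5, 3 and 11, against 1385, 935 and 2922 of the 13166 genes tested. SREBF1, the gene of the sister factor that drives fatty acid synthesis, was at 146, 86.1 and 104 CPM under DMSO, 69.9, 73.6 and 69.5 under Dex, 73.8, 73.9 and 63.4 under KLA and 58.9, 61.5 and 78.8 under both agents. The log2 change was −0.64 ± 0.15 with Dex (adjusted p = 0.0278, edgeR quasi-likelihood test), −0.66 ± 0.15 with KLA (adjusted p = 0.0109) and −0.74 ± 0.15 with DexKLA (adjusted p = 0.0109), and all 3 calls were lost without DMSO 1. The Dex call was lost in 7 of 24 alternatives, also without DMSO 3, Dex 1, Dex 2 or Dex 3, with a replicate block and with the length trend removed. RAI1 lies opposite part of SREBF1. With KLA, OSBP, an oxysterol-binding protein, changed by −0.57 ± 0.13 (adjusted p = 0.0109), MBTPS1, the protease that first cuts SREBP in the Golgi, by −0.44 ± 0.11 (adjusted p = 0.0167), and PDSS1, which builds the side chain of ubiquinone, by 0.56 ± 0.16 (adjusted p = 0.027). These 3 calls were also lost without DMSO 1, that of MBTPS1 also without DMSO 3 or KLA 3, and that of PDSS1 also without DMSO 2 or KLA 3. The difference between SREBF1 and SREBF2 in their response was not tested.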

How the data were processed

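RNA from 12 HepG2 libraries in 4 groups of 3 was analysed from the deposited table of expected counts for 70507 RefSeq transcripts, given in steps of 0.5 per the file. Per the submitters' processing notes, Trimmomatic, BWA 0.7.17, HOMER 4.10 and hg38 were used, with no roles stated, and how the authors divided reads between transcripts is not given in the sources used here. Rows with no symbol (406, 1.71% to 2.55% of a library's total) were left out of library sizes and tests. For each symbol the transcript with the highest total was kept, and counts were rounded to whole numbers.

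Tests used edgeR 4.0.16 under R 4.3.3 (filterByExpr with a minimum count of 10, TMM scaling, a quasi-likelihood fit with 1 mean per group on all 12 libraries, 8 residual degrees of freedom). P-values were adjusted over all 13166 genes tested by Benjamini and Hochberg's method, with calls made below an adjusted p of 0.05. Levels are TMM-normalised CPM. The 95% intervals of log2 changes use edgeR's moderated degrees of freedom. The procedure was checked on simulated counts with planted changes and no length trend. That check therefore does not cover the length trend of these libraries. Alternatives covered the scaling, the filter, DESeq2 1.42.0, the transcript kept per gene, the samples in the fit, a length trend, depth, a replicate block and each library left out.

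The members and the gene lists were chosen with earlier results of these data known. Values in every library were to be given for members called in any comparison and for HMGCS1, SQLE, SREBF2, INSIG1, NPC1, SOAT1 and SOAT2, and for the other pathway genes at most the 4 called with the smallest p per comparison were to be described with values. Library totals of 3317740 to 20933501 set the precision. Replicate numbers were checked for pairing, and the main fit did not pair the libraries by them. Gene overlaps were taken from GENCODE and promoters from RefSeq's GRCh38.p14. Figures were drawn with matplotlib 3.10.9.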

Additional observations from a re-analysis of the deposited data

How the results depend on the processing

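Each comparison was refitted under up to 25 alternatives, and no called result changed sign. Percentages in brackets give the share of all genes called in the same fit. After KLA against DMSO, with 5 members called (13.7%), the count was 8 with DESeq2 (15.7%) and 3 with the length trend removed (8.08%). It was 2 with the compared groups alone (10.4%), 2 with the replicate block (10.3%) and 0 with depth as a covariate (0.0304%). Leaving out 1 library gave 0 to 8 calls: 0 without DMSO 1 (0.0364%), 1 without KLA 3 (4.6%) and 2 without Dex 3 (9.91%). The count was 3 without DMSO 2 (6.52%), DMSO 3 (6.5%), Dex 1 (12.1%) or DexKLA 2 (11.4%), and 8 without DexKLA 3 (18.4%). After DexKLA against DMSO, with 2 called (4.22%), it was 4 without a filter (4.96%) and 1 with the depth covariate (1.31%). With 1 library left out it was 0 to 4: 0 without DMSO 1 (0.349%), DexKLA 1 (0.739%) or DexKLA 2 (0.639%). It was 1 without DMSO 2 (1.55%), and 4 without KLA 3 (8.39%) or DexKLA 3 (11.4%). After Dex against DMSO, with 0 called, the compared groups alone gave 3, IDI1, NPC1 and SOAT1. That was 10% of the members, near the 11% of all genes called in that fit. Leaving out 1 library gave 0 to 0 members, against 56 to 915 of all genes. For DexKLA against KLA, with 0 called, no filter gave 1 (SOAT2), as did leaving out KLA 3 or DexKLA 2. For DexKLA against Dex and the interaction, 0 members were called whichever library was left out, against 0 and 0 to 681 of all genes. Fits on fewer libraries have fewer degrees of freedom, and the cause of these shifts was not tested. Over 23 alternatives, IDI1 and INSIG2 kept their KLA call in 20 each, SC5D in 13, SOAT1 in 9 and GGPS1 in 8. Over 24, SC5D kept its DexKLA call in 21 and IDI1 in 19. With scaling by library size alone, the median log2 change of all genes was −0.11 (Dex), −0.13 (KLA) and −0.115 (DexKLA), against −0.01, −0.02 and −0.02 with TMM. Of the replicate pairs, 1 of 18 had a correlation over 0.1, so the numbers are only names. Thinning all libraries to the smallest total and refitting within a depth class were added after seeing the data. After thinning, 4 members (13.8% of those tested) were called with KLA, against 12.8% of all genes. IDI1, INSIG2 and SC5D kept their call, NPC1 gained one, and SOAT1 and GGPS1 lost theirs. Over all genes, the KLA calls fell from 1806 to 5 without DMSO 1, 4 with the depth covariate and 591 without KLA 3.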
